A study of Drosophila melanogaster with 8 samples.

Results

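Cuticle proteins are the structural proteins that insects secrete, together with chitin, to build the exoskeleton. The data describe their genes in late pupal fly heads, where 102 gene symbols carried the name of a cuticle protein and 66 of them had at least 20 counts summed over 8 libraries, out of 15141 genes in all. These 66 genes were chosen by symbol and by that total count. A gene with few counts in wild type could therefore enter only through the mutant libraries. The other 36 symbols were below the minimum. Just inside it were Ccp84Ac with 20 counts, TwdlY with 23 and Lcp3 with 24, and just outside were Cpr65Av and Cpr11B with 18 each and Lcp2 with 17.

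RNA was taken from the heads of Drosophila melanogaster pupae 73 to 90 h past puparium formation, and each library pooled 150 heads. The gene altered was TBPH, which encodes the fly form of TDP-43, a protein that binds RNA. The deficiency genotype, dTDP-43Δ142/Df(2R)106, carried a deletion allele of the gene over a chromosomal deficiency, and the 2-deletion genotype, dTDP-43Δ23/Δ142, carried 2 deletion alleles. The libraries labelled gain of function, act5c>dTDP-43, are named for expression of the fly protein from the actin 5C driver, and the last group was wild type. The wild-type stock is given as Canton S and w1118 in one label and as w1118 in another, so it is not settled whether both libraries come from 1 stock. Each group had 2 libraries, described as biological replicates. No label says whether the flies of the 2 libraries in a group were bred separately. The p-values reflect only how much libraries of the same group differ. For each gene that spread was estimated over all 4 groups and drawn toward that of other genes.

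Total counts were 858067 and 929745 in the deficiency libraries, 1160738 and 1302855 in the 2-deletion libraries, 1225179 and 1105353 in the gain-labelled libraries and 868003 and 716027 in wild type. TBPH had 49.4 and 30.8 CPM (counts per 1000000, scaled by TMM) in the deficiency libraries, 40.2 and 44.2 in the 2-deletion libraries, 55.1 and 38.8 in the gain-labelled libraries and 49.8 and 57.1 in wild type. In TBPH the gain-labelled libraries overlapped wild type. The 4 libraries of the deletion genotypes were below both wild-type libraries, but the nearest of them, at 49.4 CPM, was hardly below the 49.8 CPM of wild type. The names gain-labelled and loss genotype are therefore used below only as labels.

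Fly cuticle is laid down afresh for each stage. A pulse of the steroid hormone ecdysone starts each round, pupal cuticle is secreted first, and the epidermis later deposits adult cuticle beneath it before the adult emerges. Most cuticle proteins belong to the Cpr family, whose members carry the Rebers-Riddiford consensus, a chitin-binding sequence. Some genes are named for the stage in which they were first found, as larval (Lcp), pupal (Pcp) or adult (Acp) cuticle genes. The Edg genes are named as ecdysone-dependent genes, not for a stage, and are grouped here with Pcp as pupal-named. The 66 genes comprise 47 named Cpr, 6 of the Ccp84A cluster, 6 larval-named, 4 pupal-named and 2 adult-named genes, and the Tweedle gene TwdlY. Near-identical copies, such as Lcp65Ag2 and its relatives, may share or lose reads, so values of a single copy are uncertain.

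Cuticle protein genes made up 0.744% and 1.11% of all counts in the deficiency libraries, 0.727% and 0.769% in the 2-deletion libraries, 0.479% and 1.0% in the gain-labelled libraries, and 1.47% and 1.42% in wild type. The 95% Wilson intervals, which cover counting error only, ran from 0.467 to 0.491% for gain-labelled replicate 1 and from 1.45 to 1.5% for wild-type replicate 1. Every mutant library was thus below both wild-type libraries. In bulk heads, fewer epidermal cells and less RNA per cell cannot be told apart.

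The sum hid opposite patterns between the summed CPM of adult-named genes and that of pupal-named and larval-named genes. Adult-named genes summed to 216 and 247 CPM in the deficiency libraries, 94.9 and 153 CPM in the 2-deletion libraries, 8.92 and 53.6 CPM in the gain-labelled libraries and 395 and 711 CPM in wild type. Pupal-named genes summed to 218 and 913 CPM in the deficiency libraries, 135 and 380 CPM in the 2-deletion libraries, 144 and 951 CPM in the gain-labelled libraries and 87.9 and 71.4 CPM in wild type. Every mutant library lay below both wild-type libraries in the adult-named sum and above both in the pupal-named sum. Larval-named genes summed to 256 and 750 CPM in the deficiency libraries, 100 and 390 CPM in the 2-deletion libraries, 68.9 and 742 CPM in the gain-labelled libraries and 37.0 and 44.3 CPM in wild type, again with no overlap. These sums are descriptions without a test, and within each mutant genotype the larval-named and pupal-named sums were several times higher in 1 replicate than in the other. Single genes made up much of some sums. Acp65Aa had 377 and 683 CPM in wild type, and Lcp65Ad had 212 and 569 CPM in the deficiency libraries. Taken singly, 3 of the 4 pupal-named and 3 of the 5 tested larval-named genes had mutant libraries that overlapped with wild type.

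**Figure D1:**
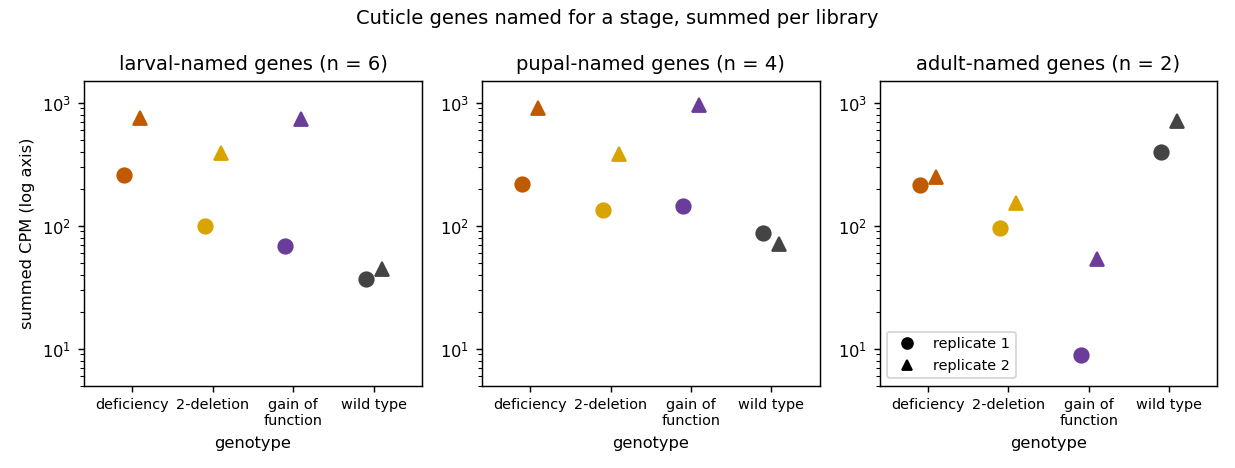
Summed CPM of the larval-named, pupal-named and adult-named genes in each of the 8 libraries, by genotype, on a log axis; circles are replicate 1 and triangles replicate 2. Adult-named sums lie between 8.92 and 247 CPM in the mutant libraries, below the 395 and 711 CPM of wild type. Pupal-named sums lie between 135 and 951 CPM in the mutant libraries, above the 87.9 and 71.4 CPM of wild type.

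Of the 66 genes, 55 passed the filter on low counts and entered the test, which is edgeR's quasi-likelihood test in 1 model of all libraries with Benjamini-Hochberg adjustment over 9252 genes. A gene is called at an adjusted p under 0.05. The 11 genes left out of the test were Cpr47Eb, Cpr65Ea, Cpr67B, Cpr78Cb, Cpr11A, Ccp84Aa, Ccp84Ab, Ccp84Ac, Ccp84Ad, Lcp3 and TwdlY.

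Against wild type, the gain-labelled libraries had 5 cuticle protein genes called lower, where 2.19% of all tested genes were called, and 2 called higher, where 0.919% of all tested genes were. The median log2 fold of the 55 genes was -0.96, and that of all tested genes was 0.01. Without gain-labelled replicate 1 the median of the cuticle protein genes was -0.35, and without wild-type replicate 1 it was -0.53. At an unadjusted p under 0.05, 19 of the 55 were lower and 6 higher. For counts at an unadjusted p, by DESeq2 or of calls without 1 library, no share of all tested genes is given, here or below. Such counts show how far the calls depend on the setting and are not read as a result about cuticle protein genes. The count of 5 rested on single libraries. It was 0 without wild-type replicate 2, 2 without wild-type replicate 1 and 2 without either of the 2-deletion replicates. It was 11 without gain-labelled replicate 1 and 21 without gain-labelled replicate 2, and DESeq2 gave 14. The count of 2 became 0 without either of the wild-type replicates.

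Cpr76Bb, a Cpr gene in a group of neighbours on arm 3L, had 42.2 and 25.3 CPM in the deficiency libraries, 12 and 18.6 CPM in the 2-deletion libraries, 0.0 and 4.62 CPM in the gain-labelled libraries and 44.0 and 62.9 CPM in wild type. All 6 mutant libraries were below both wild-type libraries, and both gain-labelled libraries were below all others. Its log2 fold in the gain-labelled group against wild type was -4.53 (SE 0.69, adjusted p = 0.012 by edgeR, n = 2 each). It was also the only 1 of the 55 genes called in edgeR's test across the 4 groups (adjusted p = 0.035), a test that called 1.1% of all genes. At an unadjusted p under 0.05 that test gave 22 of the 55. The call across groups was lost without 2-deletion replicate 1 or 2 and without either of the wild-type replicates, where the counts of called cuticle protein genes were 0, 1 (Cpr64Ad), 0 and 0. The number called was 2 without deficiency replicate 1, 4 without deficiency replicate 2 and 23 without either of the gain-labelled replicates. The gain-labelled call itself was kept in 7 of 8 fits that left out 1 library and was lost without wild-type replicate 2 (adjusted p = 0.099).

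Acp1, an adult cuticle gene, had 16.9 and 8.80 CPM in the deficiency libraries, 6.84 and 3.87 CPM in the 2-deletion libraries, 0.0 and 3.70 CPM in the gain-labelled libraries and 17.4 and 28.6 CPM in wild type. Every mutant library was below both wild-type libraries, although the higher of the deficiency values, 16.9 CPM, lay close to the lower of the wild-type values, 17.4 CPM. Acp1 fell by 3.61 on the log2 scale in the gain-labelled group (SE 0.82, adjusted p = 0.037 by edgeR, n = 2 each), a call kept in 3 of the 8 fits without 1 library. Without the other libraries its adjusted p reached 0.23.

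Cpr49Aa averaged 9.54 ± 10.1 CPM in the gain-labelled libraries and 87.2 ± 46.4 CPM in wild type (SD, n = 2 each), and fell by 3.21 on the log2 scale (SE 0.64, adjusted p = 0.038 by edgeR). Cpr47Ea had 4.87 and 33.3 CPM in the gain-labelled libraries, against 153 and 134 CPM in wild type, and fell by 2.94 (SE 0.59, adjusted p = 0.047 by edgeR). Cpr62Bb had 10.5 and 28.7 CPM in the gain-labelled libraries, against 72.9 and 65.7 CPM in wild type, and fell by 1.84 (SE 0.39, adjusted p = 0.031 by edgeR). These Cpr genes did not overlap between the groups, and in each of them gain-labelled replicate 1 was the lowest of the 8 libraries. The calls were kept in 4, 2 and 5 of the 8 fits without 1 library.

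The genes called higher in the gain-labelled libraries were Cpr78E and Edg91. Cpr78E had 61.5 and 84.7 CPM in the deficiency libraries, 67.5 and 59.7 CPM in the 2-deletion libraries, 85.2 and 74.0 CPM in the gain-labelled libraries and 25.5 and 30.0 CPM in wild type. All 6 mutant libraries stood above both wild-type libraries, with replicates close to each other in every group. Its log2 fold was 1.53 (SE 0.27, adjusted p = 0.018 by edgeR, n = 2 each) in the gain-labelled group, 1.40 (SE 0.28, adjusted p = 0.036) in the deficiency genotype and 1.20 (SE 0.28, adjusted p = 0.069) in the 2-deletion genotype, where the 8-library model did not call it. All 3 comparisons use the same wild-type libraries.

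Edg91, one of the ecdysone-dependent genes, had 18.1 and 35.2 CPM in the deficiency libraries, 48.7 and 38.0 CPM in the 2-deletion libraries, 49.5 and 63.8 CPM in the gain-labelled libraries and 9.26 and 20 CPM in wild type. The gain-labelled and 2-deletion libraries were above both wild-type libraries, and the deficiency libraries overlapped with them. Its log2 fold was 1.98 in the gain-labelled group (SE 0.42, adjusted p = 0.031 by edgeR, n = 2 each). The calls of Cpr78E and of Edg91 in the gain-labelled group were each kept in 6 of the 8 fits without 1 library and lost without either of the wild-type replicates.

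**Figure D2:**
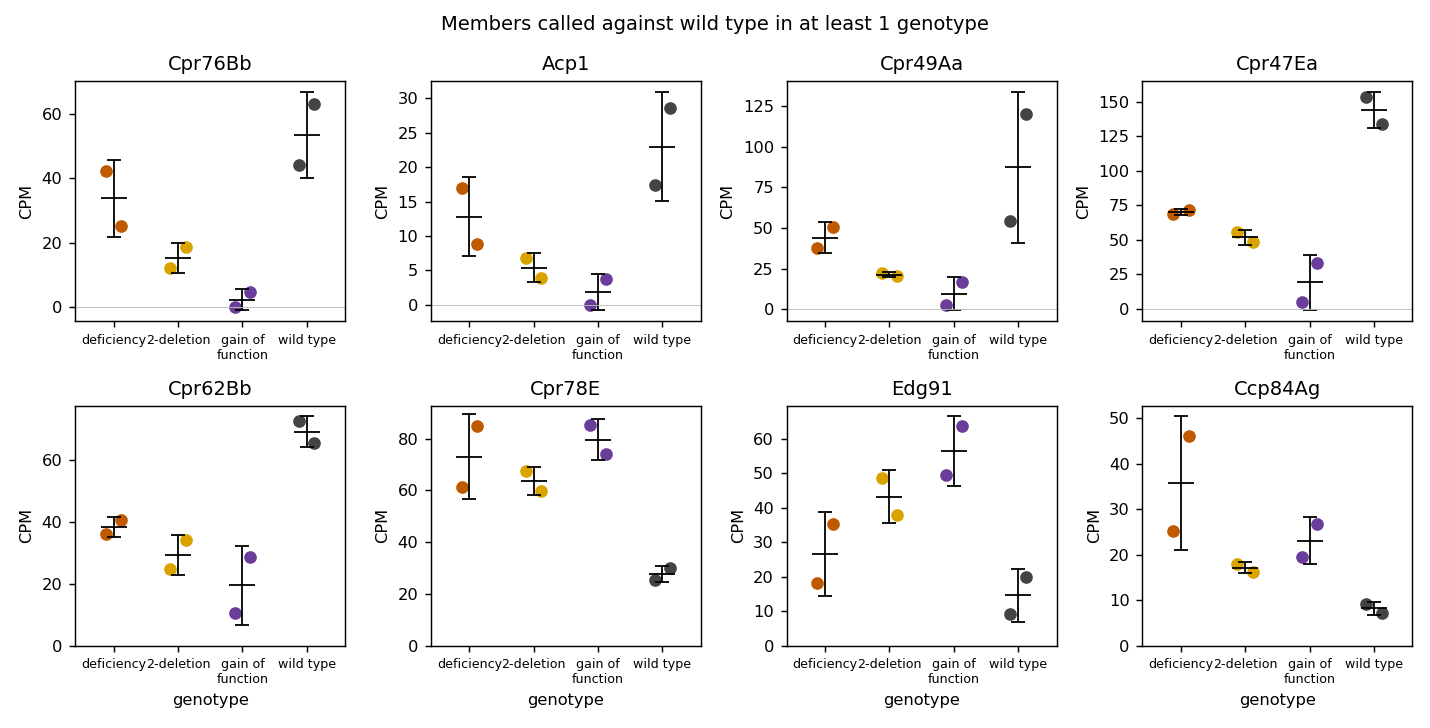
CPM of each cuticle protein gene called in at least 1 comparison, by library; points are libraries and bars are the mean ± SD of 2 libraries per group. Cpr76Bb lies at 0.0 and 4.62 CPM in the gain-labelled libraries and at 44.0 and 62.9 CPM in wild type, and Cpr78E lies between 59.7 and 85.2 CPM in the mutant libraries and at 25.5 and 30.0 CPM in wild type.

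In the deficiency genotype, 2 cuticle protein genes were called higher, Ccp84Ag and Cpr78E, where 0.562% of all tested genes were called. None was called lower by edgeR, where 1.11% of all tested genes were, with 5 at an unadjusted p under 0.05 and 0 called by DESeq2. The median log2 fold was -0.59, and it was -0.20 without deficiency replicate 1, -0.27 without wild-type replicate 1 and -0.37 without wild-type replicate 2. Ccp84Ag, a gene of the Ccp84A cluster on arm 3R, had 25.3 and 46.2 CPM in the deficiency libraries, 17.9 and 16.3 CPM in the 2-deletion libraries, 19.5 and 26.8 CPM in the gain-labelled libraries and 9.26 and 7.14 CPM in wild type. All mutant libraries were above both wild-type libraries. Its log2 fold in the deficiency genotype was 2.10 (SE 0.46, adjusted p = 0.045 by edgeR, n = 2 each). DESeq2 gave adjusted p-values of 0.064 for Ccp84Ag and 0.059 for Cpr78E, so neither call was made there. DESeq2 instead called Cpr64Ad (log2 fold 2.07, adjusted p = 0.027) and Lcp65Ad (4.5, adjusted p = 0.043) higher in the deficiency genotype. In edgeR's fits without 1 library, the call of Ccp84Ag was kept in 3 of 8 and that of Cpr78E in 4. In edgeR's fits the count of 2 became 0 without deficiency replicate 2 or either of the wild-type replicates, 1 without 2-deletion replicate 1 and 5 without either of the gain-labelled replicates. The count of 0 lower became 10 without either of the gain-labelled replicates and 1, Cpr66Cb, without deficiency replicate 2.

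In the 2-deletion genotype edgeR called no cuticle protein gene in either direction, where 0.249% of all tested genes were called higher and 0.584% lower. Without adjustment, 2 were higher and 13 lower at a p under 0.05, and DESeq2 called 0 higher and 3 lower. The median log2 fold was -0.90, or -0.46 without wild-type replicate 1. Without either of the gain-labelled replicates, edgeR called 17 lower and 2 higher.

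Both loss genotypes gave more calls when the gain-labelled libraries were left out of the model altogether, a fit of 6 libraries added after the data had been seen. The widest replicate differences were in the gain-labelled group, as given below, and in the full model all groups share 1 estimate of spread per gene. In the smaller fit, 10 of 54 tested cuticle protein genes were called lower in the deficiency genotype, where 3.85% of 8747 tested genes were, and 5 higher, where 1.55% were. In the 2-deletion genotype 17 were called lower, where 3.0% of all tested genes were, and 1 higher, Cpr78E, where 1.28% were. Cpr64Aa had 562 and 699 CPM in the deficiency libraries, 366 and 421 CPM in the 2-deletion libraries and 1330 and 1480 CPM in wild type. In the 6-library fit its log2 fold was -1.16 (SE 0.18, adjusted p = 0.0041 by edgeR, n = 2 each) in the deficiency genotype and -1.84 (SE 0.18, adjusted p = 0.00045) in the 2-deletion genotype. Cpr76Bd had 803 and 907 CPM in the deficiency libraries, 634 and 707 CPM in the 2-deletion libraries and 2450 and 2160 CPM in wild type. Its log2 fold there was -1.43 (SE 0.18, adjusted p = 0.0014 by edgeR, n = 2 each) in the deficiency genotype and -1.78 (SE 0.18, adjusted p = 0.00045) in the 2-deletion genotype. In the 8-library model neither gene was called in any comparison. Acp1 and Acp65Aa were both called lower in the 2-deletion genotype in the 6-library fit, and neither was in the deficiency genotype. Set directly against the 2-deletion genotype in that fit, the deficiency genotype had no cuticle protein gene called, where 0.0229% of all tested genes were called higher and 0.0686% lower.

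Deficiency against 2-deletion, edgeR called none of the 55 genes in the 8-library model, which called 0.0% of all tested genes. Without adjustment, 4 were higher and 1 lower at a p under 0.05, and DESeq2 called 0 in each direction. Of the 55 genes, 44 had a positive log2 fold, with a median of 0.44. That median was 0.15 without deficiency replicate 2, 0.66 without deficiency replicate 1 and 0.69 without 2-deletion replicate 2. Gain of function against the average of both loss genotypes also gave no call by edgeR, again with 0.0% of all tested genes called. The unadjusted p was under 0.05 for 2 higher and 9 lower genes, and DESeq2 called 0 higher and 2 lower. The median log2 fold there was -0.15. It was -1.49 without gain-labelled replicate 2, where 13 genes were called lower, 0.12 without gain-labelled replicate 1, 0.01 without deficiency replicate 2, -0.28 without deficiency replicate 1 and -0.33 without 2-deletion replicate 1.

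The direction of the fold was shared widely. Of the 55 tested genes, 29 (52.7%) were negative in all 3 genotypes against wild type and 19 (34.5%) positive in all 3, while 33.3% of all tested genes were negative and 34.2% positive in all 3. The genotypes share their wild-type libraries, so these directions are not independent. Over all 66 genes, 22 (33.3%) had every mutant library below both wild-type libraries, a state held by 12.5% of all tested genes. Every mutant library was above both for 8 (12.1%), a share near the 11.7% of all tested genes. The other 36 overlapped. Of the 55 tested genes alone, 22 (40.0%) were below and 7 (12.7%) above. Left out in turn, single libraries gave 22 to 31 genes below and 8 to 14 above. The count of 31 below came without wild-type replicate 2, where 22.3% of all tested genes were below. The count of 14 above came without wild-type replicate 2, where 21.4% of all tested genes were above, and without wild-type replicate 1 it was 13, where 22.5% were.

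The 22 genes below wild type were Acp1, Acp65Aa and 20 Cpr genes. The 8 above were Lcp65Ad, Lcp65Ag2, Edg78E, Ccp84Ae, Ccp84Ag, Cpr12A, Cpr78E and the untested Cpr47Eb. No larval-named or pupal-named gene was below, and no adult-named gene was above. Genes were placed by their libraries' order here, not by the test.

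**Figure D3:**
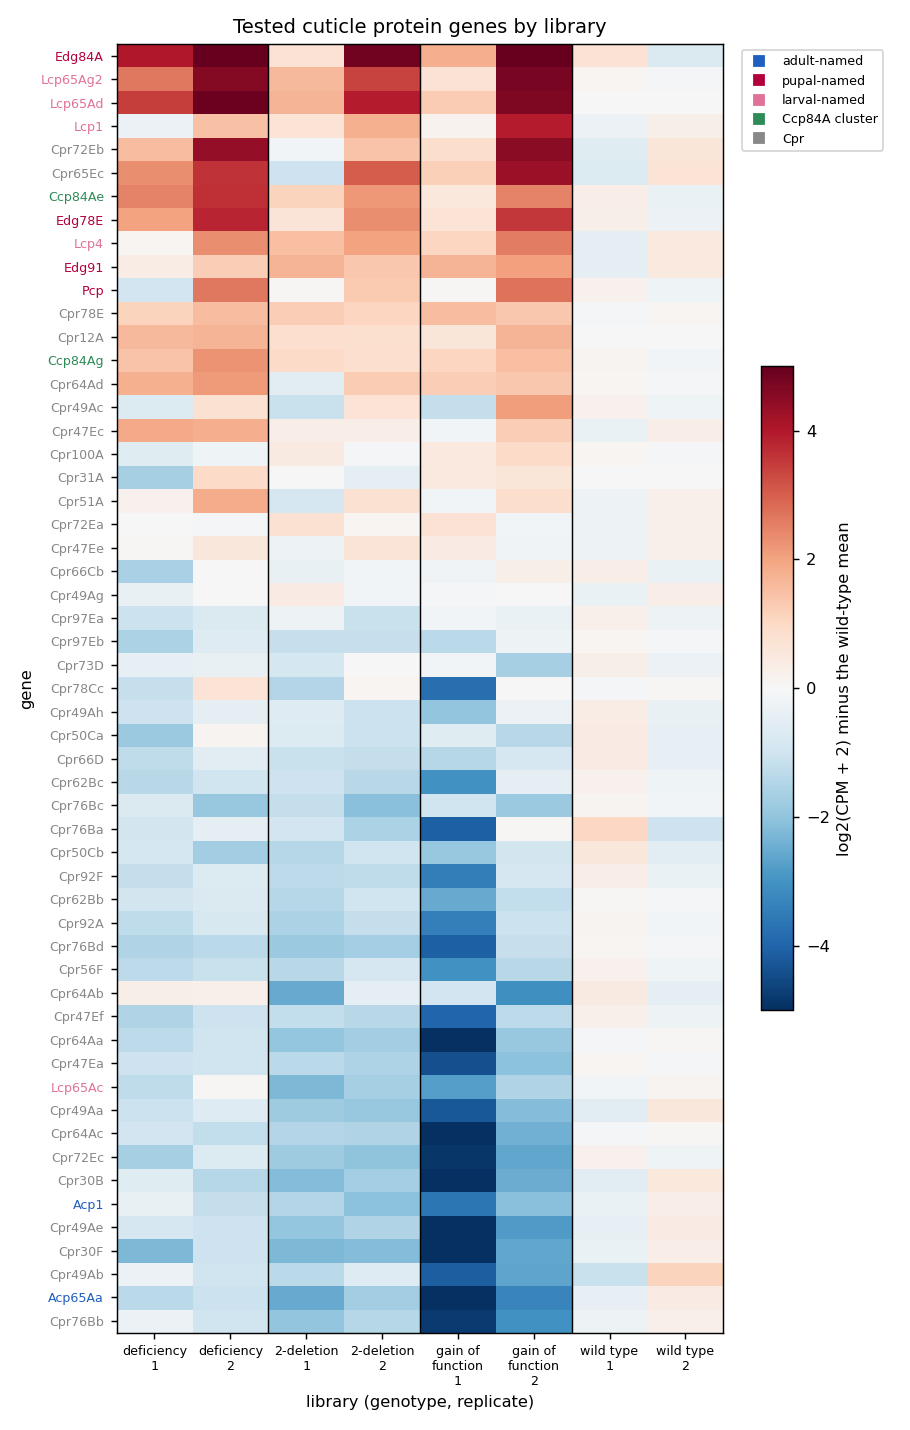
log2(CPM + 2) of each of the 55 tested genes minus its wild-type mean, by library, with the colour scale ending at 5 on either side of 0; rows run by the log2 fold of the gain-labelled group, highest on top, and label colours mark the name classes. Pupal-named and most larval-named genes are at the top, Acp1 and Acp65Aa are near the bottom, and gain-labelled replicate 1 is the lowest library in 26 of the rows.

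Among adult-type genes, Acp65Aa, an adult cuticle gene expressed in the pharate adult, had 199 and 239 CPM in the deficiency libraries, 88.0 and 150 CPM in the 2-deletion libraries, 8.92 and 49.9 CPM in the gain-labelled libraries and 377 and 683 CPM in wild type. The libraries of the 4 groups did not overlap. Its log2 fold was -4.19 in the gain-labelled group (SE 0.79, adjusted p = 0.068 by edgeR, n = 2 each), -2.15 in the 2-deletion genotype (SE 0.69, adjusted p = 0.24) and -1.27 in the deficiency genotype (SE 0.67, adjusted p = 0.42), and in this model it was not called. DESeq2 called it lower in the gain-labelled group (adjusted p = 0.00016), and the 6-library fit called it lower in the 2-deletion genotype (adjusted p = 0.035).

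Cpr49Ae had 651 and 569 CPM in the deficiency libraries, 309 and 413 CPM in the 2-deletion libraries, 32.4 and 164 CPM in the gain-labelled libraries and 894 and 1540 CPM in wild type. The groups again did not overlap, and its log2 fold in the gain-labelled group was -3.64 (SE 0.79, adjusted p = 0.091 by edgeR, n = 2 each). DESeq2 called Cpr49Ae lower there (adjusted p = 0.00072), and the 6-library fit called it lower in the 2-deletion genotype (adjusted p = 0.0078). Cpr92F had 374 and 525 CPM in the deficiency libraries, 343 and 349 CPM in the 2-deletion libraries, 77.0 and 474 CPM in the gain-labelled libraries and 1090 and 669 CPM in wild type. Cpr62Bc had 269 and 355 CPM in the deficiency libraries, 345 and 268 CPM in the 2-deletion libraries, 85.2 and 517 CPM in the gain-labelled libraries and 813 and 604 CPM in wild type. For Cpr92F and Cpr62Bc both wild-type libraries were above all others. On the log2 scale, the widest gap between their replicates was in the gain-labelled pair. Neither gene was called by edgeR in the 8-library model or by DESeq2. The 6-library fit called both lower in the deficiency genotype (adjusted p = 0.044 for Cpr92F and 0.008 for Cpr62Bc) and in the 2-deletion genotype (adjusted p = 0.014 and 0.0078).

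Cpr66D and Cpr72Ec encode proteins known from the corneal lens, the cuticle over each facet of the eye. Cpr66D had 199 and 337 CPM in the deficiency libraries, 220 and 210 CPM in the 2-deletion libraries, 177 and 266 CPM in the gain-labelled libraries and 649 and 360 CPM in wild type. Cpr72Ec, chosen for naming after its values were seen, had 197 and 381 CPM in the deficiency libraries, 181 and 152 CPM in the 2-deletion libraries, 19.5 and 102 CPM in the gain-labelled libraries and 728 and 527 CPM in wild type. Neither gene overlapped with wild type in any mutant library, and edgeR called neither in the 8-library model, with adjusted p-values in the gain-labelled group of 0.10 for Cpr66D and 0.11 for Cpr72Ec. DESeq2 called both lower in the gain-labelled group (adjusted p = 0.048 for Cpr66D and 0.0039 for Cpr72Ec) and Cpr66D lower in the 2-deletion genotype (adjusted p = 0.043). The 6-library fit called Cpr72Ec lower in the 2-deletion genotype.

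Of the pupal-named genes, Edg84A, a target of the nuclear receptor FTZ-F1, had 50.6 and 206 CPM in the deficiency libraries, 3.42 and 92.2 CPM in the 2-deletion libraries, 9.73 and 285 CPM in the gain-labelled libraries and 3.47 and 0.0 CPM in wild type. It had 229 counts in the deficiency genotype, 123 in the 2-deletion genotype and 320 in the gain-labelled group, against only 3 in the wild-type libraries together. The ratio of pooled CPM to wild type was 68.7 in the deficiency genotype (exact 95% interval 23.2 to 335), 26.1 in the 2-deletion genotype (8.71 to 128) and 72.1 in the gain-labelled group (24.4 to 351), where the intervals cover counting error only. The replicates of each mutant genotype were far apart, 1 of the 2-deletion libraries lay within the wild-type range, and none of the groups was called (adjusted p from 0.40 to 0.61 by edgeR).

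Edg78E, another ecdysone-dependent pupal cuticle gene, had 135 and 475 CPM in the deficiency libraries, 51.3 and 172 CPM in the 2-deletion libraries, 52.7 and 393 CPM in the gain-labelled libraries and 40.5 and 25.7 CPM in wild type. Each mutant library was above both wild-type libraries, but the log2 folds of 3.19, 1.74 and 2.72 in the deficiency, 2-deletion and gain-labelled groups had SEs of 1.43 to 1.44, and none was called (adjusted p from 0.37 to 0.63 by edgeR). Pcp, a pupal cuticle gene that lies in an intron of Gart, had 14.5 and 197 CPM in the deficiency libraries, 31.6 and 77.5 CPM in the 2-deletion libraries, 31.6 and 209 CPM in the gain-labelled libraries and 34.7 and 25.7 CPM in wild type. The groups overlapped, and since the strand setting of the counting is not given, reads of Pcp and of its host gene may not have been separated. Without deficiency replicate 2 the log2 fold of Pcp in the deficiency genotype was -1.04, against 1.80 with it.

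Of the larval-named genes, Lcp65Ad had 212 and 569 CPM in the deficiency libraries, 60.7 and 291 CPM in the 2-deletion libraries, 43.8 and 494 CPM in the gain-labelled libraries and 17.4 and 17.1 CPM in wild type. Lcp65Ag2 had 30.1 and 123 CPM in the deficiency libraries, 13.7 and 51.9 CPM in the 2-deletion libraries, 6.49 and 136 CPM in the gain-labelled libraries and 3.47 and 2.86 CPM in wild type. Every mutant library of these larval-named genes was above both wild-type libraries, with log2 folds from 3.33 to 4.54, SEs from 1.76 to 2.47 and no call by edgeR. DESeq2 called Lcp65Ad in the deficiency genotype only, as given above.

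Lcp4 had 6.03 and 36.3 CPM in the deficiency libraries, 19.7 and 28.7 CPM in the 2-deletion libraries, 13.8 and 42.5 CPM in the gain-labelled libraries and 3.47 and 8.57 CPM in wild type. Lcp1 had 9 counts in the deficiency genotype, 20 in the 2-deletion genotype and 65 in the gain-labelled group, against 3 in wild type. The ratio of its pooled CPM to wild type was 2.7 in the deficiency genotype (exact 95% interval 0.674 to 15.5), 4.24 in the 2-deletion genotype (1.26 to 22.3) and 14.6 in the gain-labelled group (4.79 to 72.8). The lower replicates of Lcp1 in the deficiency and gain-labelled groups, at 1.21 and 2.43 CPM, lay within the wild-type range of 1.16 to 2.86 CPM. The intervals of Lcp1 cover counting error only, and the 8-library model called it in no genotype (adjusted p from 0.33 to 0.84 by edgeR). Lcp3 was untested, with 13 counts in the gain-labelled group and 1 in wild type.

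Lcp65Ac went against the other larval-named genes. It had 3.62 and 12.1 CPM in the deficiency libraries, 0.855 and 2.32 CPM in the 2-deletion libraries, 0.0 and 2.77 CPM in the gain-labelled libraries and 10.4 and 12.9 CPM in wild type. The gain-labelled group had 3 counts, against 18 in wild type, so that pooled CPM was 8.88 times higher in wild type (exact 95% interval 2.59 to 47.0), and it was not called (adjusted p = 0.12 by edgeR).

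The Ccp84A cluster summed to 49.4 and 101 CPM in the deficiency libraries, 30.8 and 38.0 CPM in the 2-deletion libraries, 33.2 and 65.7 CPM in the gain-labelled libraries and 23.1 and 10 CPM in wild type. Of its 6 genes, Ccp84Ag and Ccp84Ae entered the test. Ccp84Ae, named after its values were seen, had 37 counts in the deficiency genotype, 16 in the 2-deletion genotype and 15 in the gain-labelled group, against 1 in wild type. Its ratio of pooled CPM to wild type in the deficiency genotype was 33.3, with an exact 95% interval of 5.61 to 1350. That interval covers counting error only. In the 8-library model its log2 fold there was 4.8 (SE 1.27, adjusted p = 0.084 by edgeR), which was not called. Nor was it called by edgeR in the 2-deletion genotype (adjusted p = 0.34) or the gain-labelled group (adjusted p = 0.28). The 6-library fit called it higher in the deficiency genotype (adjusted p = 0.019 by edgeR). Cpr47Eb, also named after its values were seen, had 7 counts in the deficiency genotype, 8 in the 2-deletion genotype, 10 in the gain-labelled group and none in wild type. A floor of 3 counts stood in for both wild-type libraries of Cpr47Eb together. Against that floor, its pooled CPM was 2.1-fold in the deficiency genotype, 1.7-fold in the 2-deletion genotype and 2.25-fold in the gain-labelled group. These ratios leave out the counting error of the mutant counts. All counts of Cpr47Eb were in mutant libraries, so it reached the minimum of 20 counts only through them. Ccp84Ae, Edg84A, Lcp65Ag2, Lcp1 and Lcp3, among others, had few wild-type counts and likewise reached it only through mutant libraries. The rises of such genes are not independent of how the genes were chosen.

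Several Cpr genes with high counts did not follow either pattern. Cpr72Ea, whose counts were the largest share of all cuticle protein counts in some libraries, had 874 and 828 CPM in the deficiency libraries, 1460 and 936 CPM in the 2-deletion libraries, 1430 and 788 CPM in the gain-labelled libraries and 732 and 1020 CPM in wild type. The groups overlapped, with log2 folds between -0.04 and 0.45. Its share of cuticle protein counts was 11.4% and 7.28% in the deficiency libraries, 20.2% and 12.1% in the 2-deletion libraries, 30.2% and 7.69% in the gain-labelled libraries and 4.95% and 6.99% in wild type. These shares are of counts and are not corrected for gene length.

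Cpr100A had 351 and 457 CPM in the deficiency libraries, 714 and 490 CPM in the 2-deletion libraries, 744 and 1020 CPM in the gain-labelled libraries and 567 and 494 CPM in wild type. Both gain-labelled libraries were above wild type and both deficiency libraries below it. None of the differences was called, with log2 folds of 0.73 (SE 0.24, adjusted p = 0.12 by edgeR) in the gain-labelled group and -0.39 (SE 0.24, adjusted p = 0.43) in the deficiency genotype. Cpr66Cb had 123 to 378 CPM in the deficiency libraries, 291 to 343 CPM in the 2-deletion libraries, 336 to 470 CPM in the gain-labelled libraries and 299 to 478 CPM in wild type. Cpr51A had 236 and 734 CPM in the deficiency libraries, 111 and 348 CPM in the 2-deletion libraries, 181 and 378 CPM in the gain-labelled libraries and 167 and 244 CPM in wild type. For Cpr66Cb and Cpr51A the groups overlapped.

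Neighbouring cuticle protein genes did not always share a direction. In the gene order of RefSeq's Release 6 table, which is later than the build of the files, Cpr64Aa, Cpr64Ab, Cpr64Ac and Cpr64Ad are consecutive on arm 3L. Their log2 folds in the gain-labelled group were -2.84, -2.16, -3.36 and 1.37, with SEs of 1.25, 1.04, 0.99 and 0.54, and none was called in that group by edgeR or DESeq2. Cpr64Ad had 62.7 and 81.4 CPM in the deficiency libraries, 11.1 and 44.2 CPM in the 2-deletion libraries, 43 and 46.2 CPM in the gain-labelled libraries and 18.5 and 15.7 CPM in wild type, so it alone of the 4 was higher in both gain-labelled libraries than in wild type. Of the 65A genes, Lcp65Ad is next to Lcp65Ac, and the pair had log2 folds of opposite sign in every genotype. Cpr72Ea, Cpr72Eb and Cpr72Ec are consecutive and had log2 folds of 0.35, 3.72 and -3.39 in the gain-labelled group, with SEs of 0.31, 1.99 and 0.80. By contrast, the 4 consecutive genes Cpr76Ba to Cpr76Bd had negative log2 folds in all 3 genotypes. The genes of these groups that carry no stage name and were not called or among the highest in CPM were named after their values were seen.

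**Figure D4:**
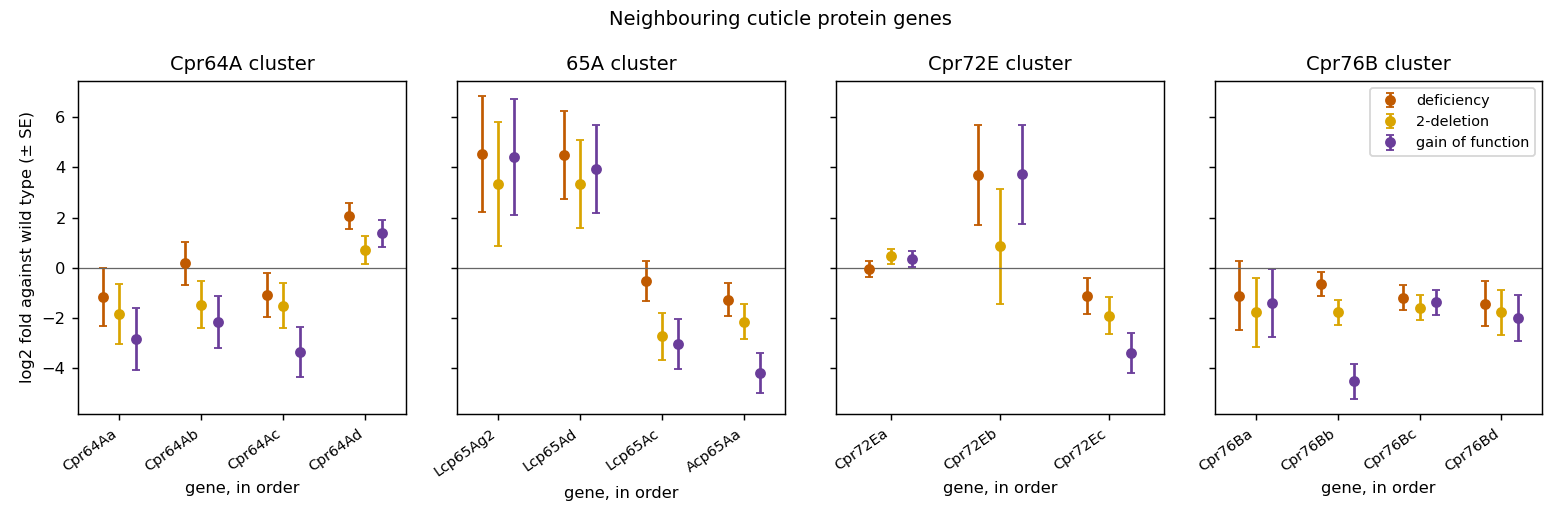
log2 fold against wild type (± SE) for each mutant genotype, for neighbouring cuticle protein genes in their order along arm 3L, in 4 groups. Folds of both signs stand side by side in the Cpr64A, 65A and Cpr72E groups, and the Cpr76B genes lie below 0 in every genotype, with Cpr76Bb at -4.53 in the gain-labelled group.

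Replicates of the mutant genotypes were often far apart for cuticle protein genes. On the log2 CPM scale with a prior count of 2, replicate 2 of the gain-labelled group was at least 2-fold above replicate 1 for 38 of the 55 genes, against 7.87% of all tested genes, and the reverse held for 2, against 3.62%. Replicate 2 of the deficiency genotype was that far above replicate 1 for 18 of 55 genes, against 5.42% of all tested genes, and replicate 2 of the 2-deletion genotype for 14, against 2.82%. In wild type, 5 of the 55 differed this way, against 3.98% of all tested genes, and 3 the other way, against 3.65%. All 5 tested larval-named genes and 3 of the 4 pupal-named genes were higher by at least 2-fold in replicate 2 of the deficiency and gain-labelled groups, and 3 of each in the 2-deletion genotype. None of them was in wild type. Both adult-named genes were higher by at least 2-fold in replicate 2 of the gain-labelled group and in no other group. The replicate numbers of different genotypes were not found to pair the samples.

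**Figure D5:**
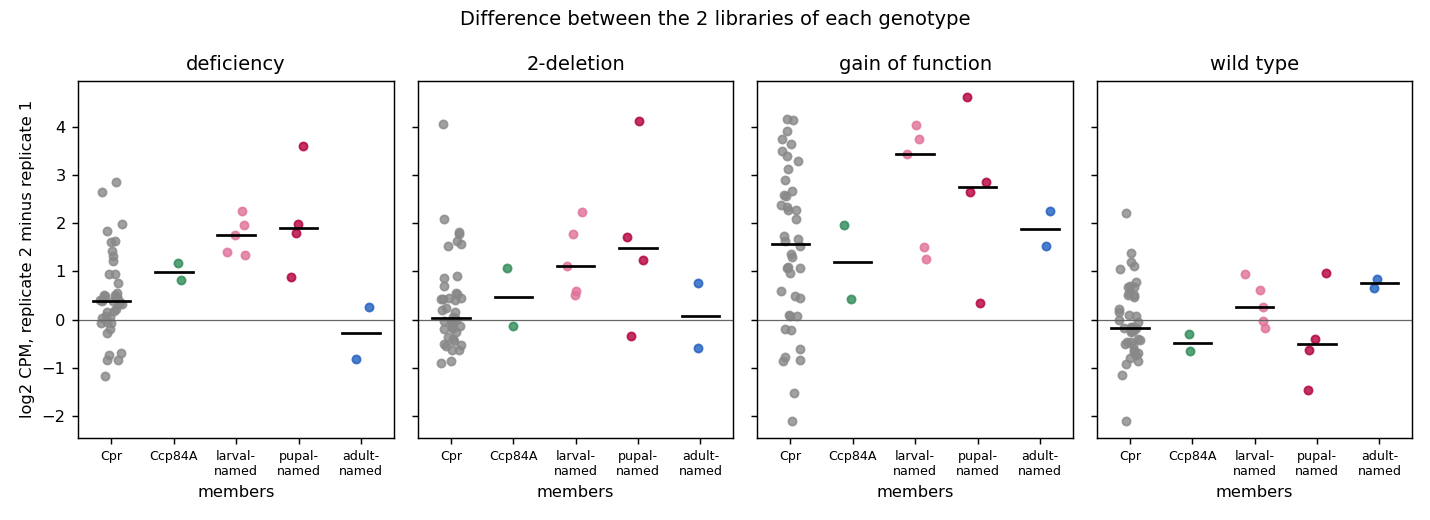
log2 difference between replicate 2 and replicate 1 for each tested cuticle protein gene, by genotype group and name class; bars are medians. The median over the 55 genes is 0.46 in the deficiency genotype, 0.24 in the 2-deletion genotype, 1.68 in the gain-labelled group and -0.16 in wild type, and medians over all tested genes are between -0.0 and 0.03.

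Gain-labelled replicate 1 was the lowest of the 8 libraries for 26 of the 55 genes, a place it held for 14.5% of all tested genes. Wild-type replicate 1 was the highest for 20, against 15.6% of all tested genes, and wild-type replicate 2 for 11, against 17.0%. Gain-labelled replicate 2 was the highest for 11, against 10.4%.

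Markers of other cell types were summed too, and only the muscle sums lay below both wild-type values in every mutant library. Neuron, glia and salivary gland sums of the mutant libraries lay above both wild-type values in some libraries and below both in others. The 4 neuron markers summed to between 348 and 596 CPM in the mutant libraries and to 532 and 494 CPM in wild type. The 3 glia markers summed to between 103 and 164 CPM in the mutant libraries and to 146 and 140 CPM in wild type. The 4 muscle markers summed to 6350 and 9560 CPM in the deficiency libraries, 4370 and 4300 CPM in the 2-deletion libraries, 1530 and 4020 CPM in the gain-labelled libraries and 11000 and 16700 CPM in wild type. The 5 photoreceptor markers summed to 497 and 1020 CPM in the deficiency libraries, 355 and 410 CPM in the 2-deletion libraries, 219 and 380 CPM in the gain-labelled libraries and 1150 and 831 CPM in wild type. The 4 fat body markers summed to 20000 and 29700 CPM in the deficiency libraries, 12200 and 14300 CPM in the 2-deletion libraries, 19000 and 22400 CPM in the gain-labelled libraries and 14000 and 12200 CPM in wild type. The muscle sums were lower in every mutant library than in wild type, as the adult-named sums were, and their part in the results was not tested. The 4 markers of epidermis, the tissue that secretes cuticle, among them the chitin synthase gene kkv, summed to 1180 and 1110 CPM in the deficiency libraries, 1460 and 1360 CPM in the 2-deletion libraries, 1530 and 1300 CPM in the gain-labelled libraries and 1410 and 1340 CPM in wild type. These epidermal sums overlapped with wild type in the gain-labelled and 2-deletion libraries and were below it in the deficiency libraries. Salivary gland markers summed to between 2.43 and 35.2 CPM, and no marker on any list was at 0 in every library.

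Other genes of cuticle formation were read from 6 lists. Of 17 tested regulators of the hormone response, edgeR called 2 higher in the gain-labelled group, 1 in the deficiency genotype and none in the 2-deletion genotype, where 9 were higher at an unadjusted p under 0.05 and DESeq2 called 0. None was called lower by edgeR or DESeq2, with at most 1 lower at an unadjusted p under 0.05 in any genotype. Their median log2 folds were 0.38 in the deficiency genotype, 0.43 in the 2-deletion genotype and 0.38 in the gain-labelled group, against 0.01 over all tested genes. Cyp18a1, an enzyme that inactivates ecdysteroids, had 68.7 and 53.9 CPM in the deficiency libraries, 52.1 and 57.3 CPM in the 2-deletion libraries, 81.1 and 52.7 CPM in the gain-labelled libraries and 20.8 and 21.4 CPM in wild type. It rose by 1.66 on the log2 scale in the gain-labelled group (SE 0.31, adjusted p = 0.020 by edgeR, n = 2 each) and by 1.53 in the deficiency genotype (SE 0.32, adjusted p = 0.042, or 0.059 by DESeq2). Eip93F, a transcription factor of the pupal to adult transition, rose by 0.84 in the gain-labelled group (SE 0.20, adjusted p = 0.042 by edgeR and 0.062 by DESeq2, n = 2 each), with 980 and 1140 CPM in the gain-labelled libraries and 579 and 601 CPM in wild type. The nuclear receptor ftz-f1, which acts after the ecdysone pulse has passed, had 124 and 216 CPM in the deficiency libraries, 92.3 and 144 CPM in the 2-deletion libraries, 99.7 and 141 CPM in the gain-labelled libraries and 105 and 100 CPM in wild type, which overlapped. The early ecdysone response gene Eip74EF, at 364 to 500 CPM in the mutant libraries and 470 and 486 CPM in wild type, overlapped as well.

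Broad, the gene br, whose product specifies the pupal stage, was added to the named genes after its values were seen. It had 269 and 345 CPM in the deficiency libraries, 153 and 246 CPM in the 2-deletion libraries, 131 and 345 CPM in the gain-labelled libraries and 69.4 and 100 CPM in wild type. Every mutant library was above both wild-type libraries, and edgeR did not call it (adjusted p from 0.14 to 0.31). DESeq2 called it higher in the deficiency genotype (adjusted p = 0.004) and in the gain-labelled group (adjusted p = 0.028).

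Of 20 tested genes of chitin synthesis and assembly, edgeR called 2 higher in the gain-labelled group and 0 in either of the loss genotypes. DESeq2 called 1 and 0, and at an unadjusted p under 0.05 there were 5 higher in the gain-labelled group, 4 in the deficiency genotype and none in the 2-deletion genotype. None was called lower, and the median log2 folds were 0.08 in the deficiency genotype, -0.01 in the 2-deletion genotype and 0.17 in the gain-labelled group. CS-2, a chitin synthase, rose by 2.44 on the log2 scale (SE 0.38, adjusted p = 0.010 by edgeR, n = 2 each), with 64.9 and 68.4 CPM in the gain-labelled libraries and 10.4 and 14.3 CPM in wild type. CG1969, now named Gnpnat, rose by 1.06 (SE 0.26, adjusted p = 0.048 by edgeR and 0.20 by DESeq2), with 65.7 and 68.4 CPM in the gain-labelled libraries and 31.2 and 32.9 CPM in wild type. The epidermal chitin synthase gene kkv had 582 and 648 CPM in the deficiency libraries, 826 and 721 CPM in the 2-deletion libraries, 957 and 715 CPM in the gain-labelled libraries and 744 and 721 CPM in wild type.

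Of 18 tested tanning and pigmentation genes, yellow-b was called lower in the gain-labelled group (log2 fold -1.95, SE 0.37, adjusted p = 0.021 by edgeR), with 17.0 and 9.25 CPM in the gain-labelled libraries and 45.1 and 58.6 CPM in wild type. No other gene of that list was called by edgeR in any genotype against wild type. At an unadjusted p under 0.05, 7 were lower and 0 higher in the gain-labelled group, 1 lower and 2 higher in the deficiency genotype and 2 lower and 0 higher in the 2-deletion genotype, and DESeq2 called 3 lower in the gain-labelled group and 1 higher in the deficiency genotype. The list's median log2 folds were -0.27 in the deficiency genotype, -0.29 in the 2-deletion genotype and -0.44 in the gain-labelled group. The tyrosine hydroxylase gene ple, which starts the catecholamine pathway used in tanning, had 709 and 1410 CPM in the deficiency libraries, 143 and 440 CPM in the 2-deletion libraries, 105 and 286 CPM in the gain-labelled libraries and 75.2 and 103 CPM in wild type. Each mutant library was above both wild-type libraries, and edgeR called ple in no genotype. DESeq2 called it higher in the deficiency genotype (log2 fold 3.58, adjusted p = 0.0027) and in no other. Ddc, which encodes dopa decarboxylase, the next enzyme of that pathway, had 45.8 and 141 CPM in the deficiency libraries, 39.3 and 87.6 CPM in the 2-deletion libraries, 30.0 and 264 CPM in the gain-labelled libraries and 39.3 and 98.6 CPM in wild type, which overlapped.

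Of 10 zona pellucida proteins of the apical matrix, 5 other cuticle structural genes and 3 tested genes of bursicon and ecdysis signalling, edgeR called 0 in each genotype against wild type. No zona pellucida gene had an unadjusted p under 0.05 in any genotype. Of the other structural genes 3 were lower at that level in the deficiency genotype, 1 in the 2-deletion genotype and 1 in the gain-labelled group, of the signalling genes 0, 1 and 1 in those groups, and none was higher. DESeq2 called 1 of the other structural genes lower in each genotype and none of the rest. Median log2 folds ran from -0.27 to 0.05 for the zona pellucida genes and from -0.36 to 0.40 for the signalling genes. All 5 of the other structural genes had negative log2 folds in every genotype, with medians of -0.90 in the deficiency genotype, -0.73 in the 2-deletion genotype and -0.63 in the gain-labelled group. Of these, resilin, which encodes an elastic cuticle protein and was named after its values were seen, had 136 and 265 CPM in the deficiency libraries, 118 and 159 CPM in the 2-deletion libraries, 40.5 and 128 CPM in the gain-labelled libraries and 701 and 590 CPM in wild type. Every mutant library was below both wild-type libraries, and its log2 fold in the gain-labelled group was -2.95 (adjusted p = 0.068 by edgeR). DESeq2 called resilin lower in the deficiency genotype (adjusted p = 0.015), the 2-deletion genotype (adjusted p = 0.00016) and the gain-labelled group (adjusted p = 3.1e-08).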

How the data were processed

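Total RNA was extracted from late pupal heads with Trizol, depleted of ribosomal RNA with RiboMinus and sequenced as SOLiD whole-transcriptome libraries, per the labels' protocols. The authors deposited 1 file of whole-number counts per gene and library, made with HTSeq on the dm3 build, per the submitters' processing notes. The aligner, annotation, strand setting and tool versions were not given in the sources used here. No coordinates are printed, since the reference table is of Release 6. That table served to match names (102 of 102 cuticle protein symbols) and to order genes.

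Tests used R 4.3.3 with edgeR 4.0.16 and limma 3.58.1. Genes were kept by filterByExpr (minimum count 10, minimum total 15), scaled by TMM and fitted in 1 robust quasi-likelihood model of 4 group means over 8 libraries, with 4 residual degrees of freedom and a common biological coefficient of variation of 20.7%. The p-values were adjusted by Benjamini-Hochberg over 9252 genes. The SE of a log2 fold was derived from its F statistic as the fold over root F. CPM are TMM-scaled, and log2(CPM + 2) was used for the plot by library. For groups with 1 to 3 counts, pooled ratios have exact 95% Clopper-Pearson intervals. Library totals ran from 716027 to 1302855 counts, so 1 count was worth 0.775 to 1.43 CPM, and genes under about 10 CPM carry wide counting error. The scripts were tested on simulated counts for the gain-labelled group against wild type. There the edgeR test recovered 12.5% of log2 changes of 1 and 67.5% of log2 changes of 2. Of the calls, 8.12% were of genes that had not been changed. A gene that was not called may therefore still have changed.

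The genes, lists and tests were chosen with earlier results of these data known. Named were all larval-named, pupal-named and adult-named genes, the 10 with the highest mean CPM, and called genes (up to 6 a direction and comparison, up to 10 across groups). Of the lists, called genes (up to 4) and ftz-f1, Eip74EF, kkv, ple and Ddc were named. Alternatives were DESeq2 1.42.0, its size factors, other count filters, the replicate number as a block and leaving out libraries.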

Additional observations from a re-analysis of the deposited data

Results flagged for a closer look

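Cpr100A was flagged because both gain-labelled libraries lay above wild type and both deficiency libraries below it. It had 744 and 1020 CPM in the gain-labelled libraries, 351 and 457 CPM in the deficiency libraries and 567 and 494 CPM in wild type. The log2 folds against wild type differed by 1.12 between the gain-labelled group and the deficiency genotype. That difference itself was not tested. Gain of function against the average of both loss genotypes had a log2 fold of 0.83 (adjusted p = 0.61 by edgeR), and the comparisons share their wild-type libraries.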

How the results depend on the processing

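With 2 libraries a group, single libraries decide most counts of calls, and the cause was not tested. Leaving out 1 library at a time, called genes in the gain-labelled group ranged from 0 to 3 higher and 0 to 21 lower, in the deficiency genotype from 0 to 5 and 0 to 10, and in the 2-deletion genotype from 0 to 2 and 0 to 17. Gain of function against loss ranged from 0 to 13 lower and the test across groups from 0 to 23, while genes beyond both wild-type libraries ranged from 22 to 31 below and 8 to 14 above. The counts higher in gain of function against loss and in either direction in deficiency against 2-deletion were 0 throughout. DESeq2 gave 14 lower in the gain-labelled group, 3 lower in the 2-deletion genotype, 2 lower in gain of function against loss and 11 across groups. Without a count filter there were 4 higher in the deficiency genotype, 2 higher in the 2-deletion genotype and 7 across groups. The 6-library fit gave 5 higher and 10 lower in the deficiency genotype and 1 higher and 17 lower in the 2-deletion genotype. DESeq2's size factors and a filter of 50 counts kept every count of calls within 1.5 times of the values given.

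Same-numbered replicates deviated together with correlations over all genes of -0.04 to 0.17, so the numbers were not taken to pair the samples. Over the cuticle protein genes alone the correlations were 0.40, 0.26 and 0.35 among the 3 mutant genotypes and -0.09 to 0.05 with wild type. With the replicate block, edgeR called Acp65Aa lower in the gain-labelled group (adjusted p = 0.004) and in the 2-deletion genotype (adjusted p = 0.042), and 4 genes were higher in the gain-labelled group, 4 higher and 1 lower in the deficiency genotype, 2 lower in the 2-deletion genotype and 6 across groups. Of these, Cpr72Eb and Lcp1 in the gain-labelled group, Cpr72Eb and Ccp84Ae in the deficiency genotype (all higher) and Cpr76Bc in every genotype (lower) were not called without the block. The block turned the log2 fold of Cpr66Cb in the gain-labelled group to -0.02 and that of Cpr51A in the 2-deletion genotype to -0.03.

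Of 81 log2 folds of 27 named genes, 10 changed sign in at least 1 of the fits without 1 library, with 13 such values in all, and none of these 10 was called by edgeR on all 8 libraries. In the gain-labelled group, over the 8 such fits, Cpr72Ea ranged from -0.14 to 0.72, Cpr51A from -0.17 to 0.89 and Cpr66Cb from -0.23 to 0.45. In the deficiency genotype Pcp ranged from -1.04 to 2.70, Lcp1 from -0.60 to 2.14, Lcp65Ac from -1.62 to 0.08 and Cpr72Ea from -0.24 to 0.23. In the 2-deletion genotype Cpr100A ranged from -0.11 to 0.42, Cpr66Cb from -0.59 to 0.09 and Cpr51A from -0.89 to 0.77.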
